A study of Mus musculus with 56 samples.

Results

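The insulin-like growth factor (IGF) axis was followed through 10 genes: the ligands Igf1 and Igf2, the receptors Igf1r and Igf2r, and the binding proteins Igfbp2, Igfbp3, Igfbp4, Igfbp5, Igfbp6 and Igfbp7. They are 10 of the 12508 genes tested, and each was read from its probe set with the highest mean over all 56 arrays. All 10 passed the filter on low values. The platform holds 28 probe sets for them, and Igfbp2 and Igfbp6 have 1 each.

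IGF1 and IGF2 bind the IGF1 receptor, a tyrosine kinase that signals through insulin receptor substrates, PI3 kinase and AKT and promotes growth and survival. The IGF2 receptor, also the cation-independent mannose 6-phosphate receptor, has no kinase; it takes up IGF2 for lysosomal breakdown and sorts lysosomal enzymes. IGF-binding proteins hold the ligands in serum and tissue fluid, and in the mammary gland IGFBP5 is known for its rise when the gland regresses after lactation.

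Each sample was 1 mammary tumor, grown from a p53null mammary fragment, measured on 1 array. Female BALB/c hosts had lost their own mammary epithelium at 3 weeks of age, received the fragment in an inguinal fat pad, and had been irradiated or sham-irradiated 3 days earlier; the fragments themselves were not irradiated. Of the tumors, 9 grew in sham-irradiated wild-type, 23 in irradiated wild-type, 6 in sham-irradiated TGFb1 heterozygote and 18 in irradiated TGFb1 heterozygote hosts. Every group, the controls included, thus carries p53null tumor tissue, and the TGFb1 genotype is that of the host. No radiation dose is given in the labels, nor whether any host bore more than 1 tumor. The p-values therefore measure only the spread between these tumors, and precision is limited by how many arrays a group has. Tumors are named by group and by the number in their title.

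Values are RMA log2 values, on which a difference of 1 is a doubling. Array medians were 5.92 to 6.00 in wild-type hosts and 5.57 to 5.71 in heterozygote hosts. The host genotypes were therefore treated as normalized separately and levels were compared within a genotype. A cell type marker score is the mean log2 value of a list of marker genes. The epithelial score, from genes such as Epcam and Krt8, left a gap between 10.63 and 11.37, where a limit of 11 was set after the data were seen. A wider step, from 8.42 to 9.52, lies among the lower scores. The score was below 11 in 11 of 56 tumors, 7 of wild-type and 4 of heterozygote hosts. These tumors ran from 7.11 to 10.63, so they go against the epithelial tissue the labels name to differing degrees. Many results, though not all, are also given for the other 25 and 20 tumors. The 18S ribosomal control averaged 11.28 ± 1.78 (SD, n = 9) in sham wild-type hosts, against 12.74 ± 0.90 (SD, n = 23) after irradiation. It averaged 11.75 ± 1.01 (SD, n = 6) in sham and 12.07 ± 0.71 (SD, n = 18) in irradiated heterozygote hosts.

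No member was called for host irradiation in either genotype. Igf2r and Igfbp2 had the lowest unadjusted p-values among the members. In heterozygote hosts mean Igf2r was 1.87-fold higher after irradiation, and in wild-type hosts mean Igfbp2 was 2.67-fold higher. Neither passed limma's test after Benjamini-Hochberg adjustment over 12508 genes, at the threshold of 0.05. Of all genes, 0 (0%) were called in wild-type hosts, 0 (0%) in heterozygote hosts and 0 (0%) for the difference between the genotypes' effects. The unadjusted limma p was under 0.05 for 884, 730 and 605 genes (7.07%, 5.84% and 4.84%) and for 1, 1 and 2 of the 10 members. The members' median log2 fold changes were 0.04, 0.08 and 0.08, against medians of -0.003, 0.009 and 0.012 over all genes.

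**Figure D1:**
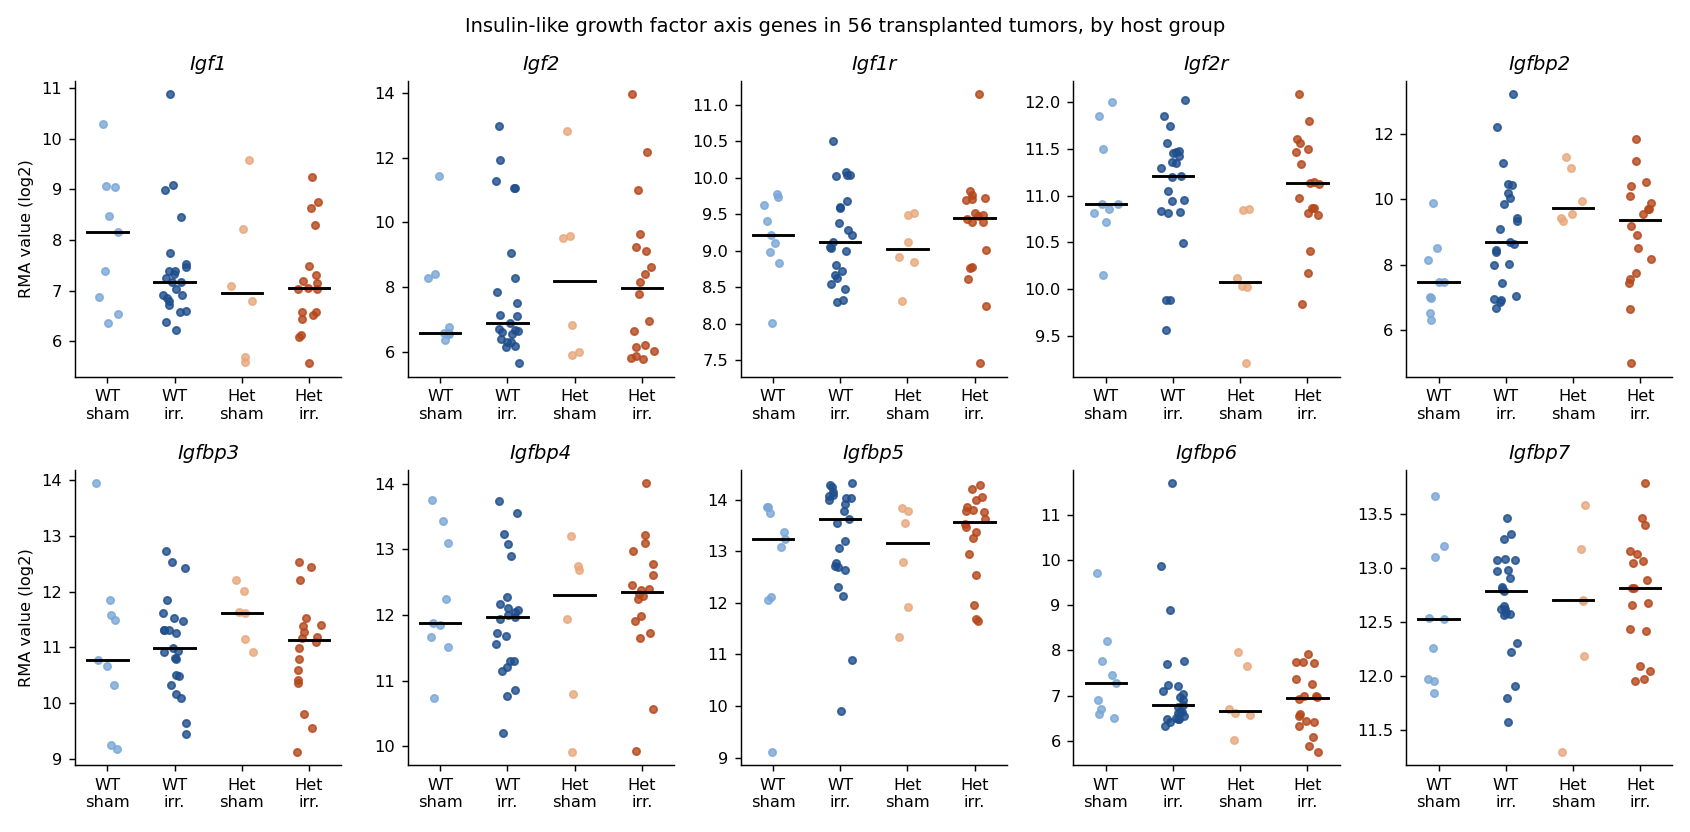
RMA log2 values of the 10 genes in 56 tumors, by host group (wild-type, WT; TGFb1 heterozygote, Het; irr., irradiated); points are tumors and bars are group medians. The groups overlap for every gene; 17 of 18 Igf2r values in irradiated heterozygote hosts lie above the sham median of 10.08, and single Igf2 values reach 13.95.

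Among the ligands, Igf1 (chr10:87858265-87937047, GRCm38.p6), the main ligand of postnatal growth, ran from 6.36 over a median of 8.15 to 10.28 in sham wild-type hosts. In irradiated wild-type hosts it ran from 6.22 over 7.18 to 10.87. Only 4 of the 23 irradiated values lay above the sham median, yet the ranges overlap almost wholly. The mean log2 difference was -0.59 (SE 0.44; limma adjusted p = 0.845). With the 18S control as a covariate it was 0.02, and without sham tumor 46 it was -0.31. In heterozygote hosts Igf1 ran from 5.60 over 6.95 to 9.58 in sham and from 5.57 over 7.05 to 9.24 in irradiated hosts, which is a log2 difference of 0.01 (SE 0.52, limma adjusted p = 0.998). The other 3 Igf1 probe sets followed the one used, with correlations of 0.90 to 0.98 across tumors of a genotype.

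Igf2 (chr7:142650768-142666816), the ligand of fetal growth and an imprinted gene expressed from the paternal copy, varied more between tumors than any other member. Its within-group SD was 2.05 in wild-type hosts, larger than that of 99.6% of genes, and 2.44 in heterozygote hosts, where 100.0% of genes after rounding had a smaller one. The median gene had an SD of 0.42 and 0.38. In sham wild-type hosts Igf2 ran from 6.36 over 6.60 to 11.44, and in irradiated wild-type hosts from 5.65 over 6.90 to 12.97. In heterozygote hosts it ran from 5.89 over 8.17 to 12.83 in sham and from 5.79 over 7.97 to 13.95 in irradiated hosts.

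These wide ranges came from a minority of tumors. Igf2 was 9 or more in 16 of 56 tumors, namely 1 of 9, 6 of 23, 3 of 6 and 6 of 18 in the order of groups above, and the highest of the other 40 was 8.63. Since the genotypes were treated as normalized separately, a limit of 9 is only a rough common mark. The 3 highest were irradiated heterozygote tumor 7 (13.95), irradiated wild-type tumor 59 (12.97) and sham heterozygote tumor 30 (12.83). Tumors 7 and 59 had epithelial scores of 9.59 and 7.11, and tumor 59 also had a skeletal muscle marker score of 11.39, against a median of 4.79 in its group. Tumor 30 had an epithelial score of 12.03, so high Igf2 occurred on both sides of the epithelial gap. The log2 fold change with irradiation was 0.42 (SE 0.85, limma adjusted p = 0.96) in wild-type and -0.24 (SE 1.02, limma adjusted p = 0.988) in heterozygote hosts. The sign depended on single tumors: without sham heterozygote tumor 30 the latter was 0.63. The wild-type value was 0.92 without sham tumor 31 and 0.19 without irradiated tumor 59. A dimmer Igf2 probe set, with a mean of 3.66, was above the median of all values on 1 array and was not used.

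Among the receptors, Igf1r (chr7:67952257-68233668), the signalling receptor, had within-group SDs of 0.61 and 0.71, larger than those of 71.2% and 80.3% of genes. It ran from 8.01 over 9.21 to 9.78 in sham and from 8.30 over 9.12 to 10.50 in irradiated wild-type hosts, a log2 fold change of 0.04 (SE 0.25, limma adjusted p = 0.988). In heterozygote hosts it ran from 8.31 over 9.02 to 9.52 in sham and from 7.46 over 9.45 to 11.14 in irradiated hosts. The log2 fold change there was 0.27 (SE 0.30, limma adjusted p = 0.959). Without sham tumor 52 it was 0.12.

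Correlations of the other Igf1r probe sets with that used were 0.51 to 0.92 in wild-type and 0.45 to 0.99 in heterozygote hosts. The dimmest probe set had the lowest value in each genotype. Readings by probe set were compared with the rest of the group for tumor 53 only, and other tumors were not tested. In irradiated wild-type tumor 53 the probe set used for the gene read 10.04, rank 3 of 23 from the top. Ordered by mean level, the third probe set read 13.05 there, against 7.56 to 9.32 in the other 22 tumors of the group. The fifth read 8.90 against 5.39 to 6.96, and the second read 10.69 against 7.80 to 10.01. By contrast the fourth read 4.68, below the 5.38 to 6.95 of the other tumors. In tumor 53, then, 3 of 5 Igf1r probe sets were the highest of the group and 1 was the lowest.

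**Figure D2:**
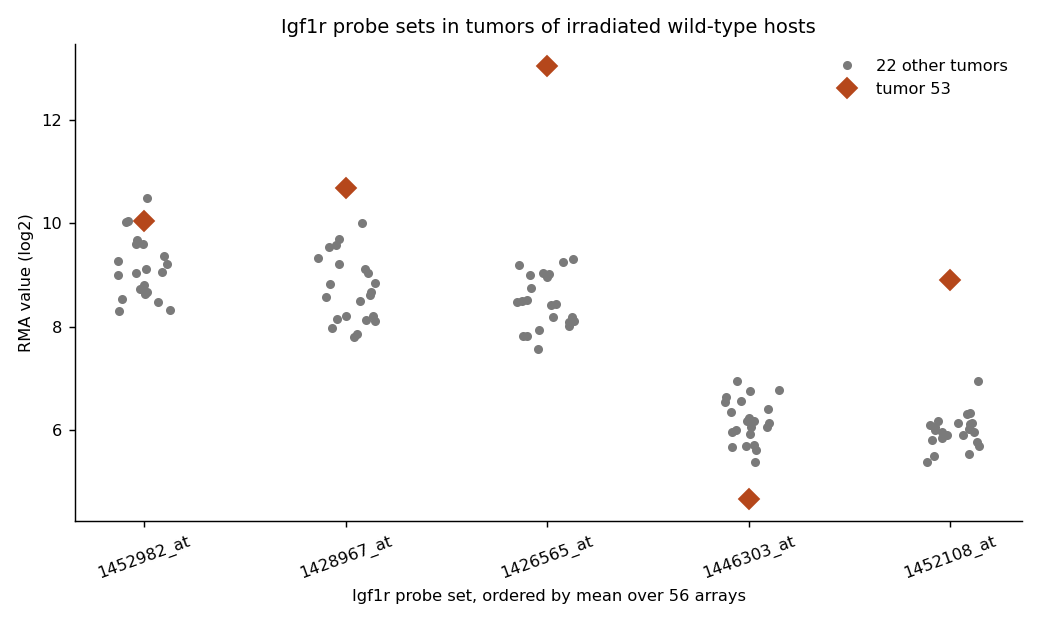
RMA log2 values of the 5 Igf1r probe sets in the 23 tumors of irradiated wild-type hosts, with tumor 53 as a diamond and the other 22 as dots. In order of mean level, tumor 53 is apart from the rest on the third (13.05) and the fifth (8.90), within the range of the rest on the first (10.04) and lowest on the fourth (4.68).

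Igf2r (chr17:12682406-12769706), the scavenger receptor for IGF2, had the lowest p among the members in heterozygote hosts, although Igfbp2 differed by more there. The 6 sham values were 9.21, 10.02, 10.03, 10.12, 10.85 and 10.86. In irradiated heterozygote hosts they ran from 9.84 over 11.13 to 12.08. Of the 18 irradiated tumors, 13 lay above the highest sham value and 17 above the sham median, though the ranges overlap. The log2 fold change was 0.90 (SE 0.28, 95% interval 0.34 to 1.46). Its unadjusted limma p of 0.0021 ranked 38 of 12508 genes, and the adjusted p was 0.676. The second Igf2r probe set gave 1.02 (SE 0.29).

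In wild-type hosts Igf2r ran from 10.15 over a median of 10.91 in sham hosts, with the second highest value at 11.85, and from 9.57 over 11.21 to 12.02 in irradiated hosts, with a log2 fold change of -0.01 (SE 0.23, limma adjusted p = 1). The effects in the genotypes differed by 0.91 (SE 0.36, unadjusted limma p = 0.0155, adjusted p = 0.999), which did not pass. Without the tumors of epithelial score below 11, the log2 fold change in heterozygote hosts was 0.61 (limma adjusted p = 0.531). The sham heterozygote group held 2 such tumors of 6, the irradiated group 2 of 18, and tumor 15, the lowest in Igf2r, was one of them. The 3' minus 5' control difference, a sign of RNA quality, averaged 0.405 in sham and 0.273 in irradiated heterozygote tumors, and with it as a covariate the Igf2r value was 1.08. Basal and myoepithelial markers were mostly lower after irradiation in this contrast, and none passed. Of 7, 6 were negative, with a median of -0.91, and Krt5 had -1.94 (SE 0.69, limma adjusted p = 0.676). Over all genes 51.8% were positive. Other marker lists also leaned to 1 side. Positive were 9 of 9 epithelial, 5 of 5 skeletal muscle, 3 of 3 adipocyte and 1 of 10 fibroblast markers. Endothelial, pericyte, macrophage, T cell and milk lists held both signs. The basal and myoepithelial score ran from 6.48 over 8.63 to 10.80 in sham and from 6.53 over 7.62 to 10.78 in irradiated hosts. With group means taken off over 24 heterozygote tumors, Igf2r had r of -0.13 with it (permutation p = 0.56). Spearman's rho was also -0.13 (permutation p = 0.553). The r of Igf2r was 0.46 with the pericyte score (permutation p = 0.0301) and -0.44 with the skeletal muscle score (permutation p = 0.0332). Neither passed after adjustment over the marker score relations of the genotype (permutation adjusted p = 0.097 and 0.103). With the fibroblast, endothelial, macrophage, T cell, adipocyte and milk scores r lay between -0.05 and 0.27. The part of these scores in the Igf2r difference between sham and irradiated tumors was not tested. In bulk tumor RNA, fewer cells of a type and less RNA per cell cannot be told apart.

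Across tumors of wild-type hosts, Igf1r and Igfbp5 each followed Igf2r but did not follow each other (r = 0.18, permutation p = 0.315; rho = 0.24, permutation p = 0.184). The 250 bases before the RefSeq gene starts (GRCm38.p6) of these 3 genes are shown, with Igfbp6 as a gene that followed Igf1. Capitals mark the GC box, a site read by SP1, spelled GGGCGG. In Igfbp6 they mark the TATA box letters, spelled TATAAA on the opposite strand.
Igf1r, chr7:67952007-67952256, plus strand: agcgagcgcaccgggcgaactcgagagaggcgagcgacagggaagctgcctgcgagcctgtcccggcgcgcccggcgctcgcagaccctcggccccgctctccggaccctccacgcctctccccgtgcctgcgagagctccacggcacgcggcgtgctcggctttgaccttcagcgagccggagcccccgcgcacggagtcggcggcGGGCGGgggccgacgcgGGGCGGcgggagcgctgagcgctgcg
Igf2r, chr17:12769707-12769956, minus strand: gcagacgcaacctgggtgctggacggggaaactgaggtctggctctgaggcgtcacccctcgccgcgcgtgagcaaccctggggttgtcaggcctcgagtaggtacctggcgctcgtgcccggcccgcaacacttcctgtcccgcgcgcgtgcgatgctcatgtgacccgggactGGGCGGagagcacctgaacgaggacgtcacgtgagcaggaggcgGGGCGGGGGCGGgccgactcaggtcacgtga
Igfbp5, chr1:72874866-72875115, minus strand: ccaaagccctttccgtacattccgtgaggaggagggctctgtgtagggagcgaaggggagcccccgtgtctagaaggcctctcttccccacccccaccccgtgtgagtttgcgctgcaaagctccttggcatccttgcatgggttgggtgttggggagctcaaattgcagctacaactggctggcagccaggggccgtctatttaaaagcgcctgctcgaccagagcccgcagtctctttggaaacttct
Igfbp6, chr15:102143936-102144185, plus strand: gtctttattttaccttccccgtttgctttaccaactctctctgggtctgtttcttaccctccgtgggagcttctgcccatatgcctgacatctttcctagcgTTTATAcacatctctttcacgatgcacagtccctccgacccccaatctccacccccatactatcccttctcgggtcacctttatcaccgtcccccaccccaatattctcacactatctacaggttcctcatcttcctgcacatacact

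The receptor windows were GC-rich. Igf1r had 77.6% G or C, 42 CpG and 2 GC boxes, and Igf2r had 69.2%, 27 CpG and 3 GC boxes. Igfbp5 had 58.8%, 10 CpG and no GC box, and Igfbp6 had 49.6% and 7 CpG. Among members not shown, Igfbp7 had 74.0% and 4 GC boxes, Igfbp3 73.2% and Igfbp4 69.2%, so GC-rich windows were not limited to the receptors. The Igfbp2 windows had 67.2% and 56.4%, Igf1 had 52.8%, and the Igf2 windows ran from 47.6% to 68.8%. Over all 32851 RefSeq windows of this length the medians were 52.4% and 6 CpG. A GC box occurred in 6 of the 14 windows of the members, TATAAA in 2 and CAGACA (an element bound by SMAD proteins) in 2, searched on both strands. The shares over all windows were 32.7%, 12.4% and 17.1%. Igf2 and Igfbp2 have more than 1 window each, and both windows with CAGACA are of Igf2. Such matches describe letters, not binding.

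Among the binding proteins, Igfbp2 (chr1:72824480-72852474), a carrier also made by epithelial tumors, had opposite signs in the host genotypes. In sham wild-type hosts the 9 values ran from 6.33 over 7.48 to 9.88, and in irradiated wild-type hosts from 6.68 over 8.68 to 13.19. Of the 23 irradiated tumors, 7 lay above the highest sham value and 17 above the sham median. The log2 fold change was 1.42 (SE 0.61, 95% interval 0.20 to 2.63), with an unadjusted limma p of 0.0231, rank 447, and an adjusted p of 0.645. Irradiated tumors 16 (13.19) and 57 (12.19), the highest, had epithelial scores of 10.32 and 10.63. Without the tumors of epithelial score below 11 the log2 fold change was 0.83 (limma adjusted p = 0.661). Without the arrays of 18S below 11 it was 0.95 (limma adjusted p = 0.735).

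In heterozygote hosts Igfbp2 ran from 9.34 over 9.75 to 11.28 in sham and from 5.0 over 9.36 to 11.82 in irradiated hosts. Of the 18 irradiated values, 9 lay below the lowest sham value. The mean difference was -1.08 (SE 0.73; limma adjusted p = 0.912). The effects differed by -2.50 between the genotypes (SE 0.95, unadjusted limma p = 0.0108, adjusted p = 0.999), the widest difference among the members, and it did not pass. It was -2.09 without the tumors of low epithelial score.

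Igfbp3 (chr11:7206086-7215498), the main serum carrier of the IGFs, had a log2 fold change of 0.05 (SE 0.37, limma adjusted p = 0.988) in wild-type hosts. It ran from 9.18 over 10.78 to 13.95 in sham and from 9.45 over 10.99 to 12.74 in irradiated hosts. In heterozygote hosts Igfbp3 ran from 10.91 over 11.62 to 12.21 in sham and from 9.12 over 11.13 to 12.54 in irradiated hosts, which is a log2 difference of -0.59 (SE 0.45, limma adjusted p = 0.924). Only 3 of 18 irradiated heterozygote tumors lay above the sham median, and 7 lay below the sham minimum. Sham wild-type tumor 46 had the highest Igfbp3 in wild-type hosts.

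Igfbp4 (chr11:99040005-99052655), an inhibitory binding protein cleaved by the protease PAPP-A, ran from 10.74 over 11.88 to 13.75 in sham and from 10.20 over 11.97 to 13.74 in irradiated wild-type hosts. In heterozygote hosts sham and irradiated values ran from 9.91 over 12.31 to 13.20 and from 9.93 over 12.35 to 14.01. The medians of sham and irradiated tumors lay within 0.1 of each other in both genotypes. The log2 fold changes were -0.29 (SE 0.37, limma adjusted p = 0.926) and 0.37 (SE 0.45, limma adjusted p = 0.959). They were -0.10 without sham wild-type tumor 46 and -0.02 without sham heterozygote tumor 52.

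Igfbp5 (chr1:72858065-72874865) ran from 9.11 over 13.23 to 13.86 in sham and from 9.90 over 13.62 to 14.32 in irradiated wild-type hosts. In heterozygote hosts the ranges were from 11.33 over 13.17 to 13.83 and from 11.64 over 13.58 to 14.29. The log2 fold changes were 0.52 (SE 0.43, limma adjusted p = 0.864) and 0.45 (SE 0.51, limma adjusted p = 0.958). Sham wild-type tumor 60 was far below its group at 9.11, the next lowest value being 12.06, and without it the log2 fold change in wild-type hosts was 0.07. Without sham heterozygote tumor 15 that in heterozygote hosts was 0.14. The second Igfbp5 probe set gave 0.45 in wild-type hosts (SE 0.21, unadjusted limma p = 0.0403, adjusted p = 0.603). Its sham values there ran from 9.18 over 9.61 to 10.54. In heterozygote hosts it gave 0.19 (SE 0.26, limma adjusted p = 0.929).

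Igfbp6 (chr15:102144186-102149512), which prefers IGF2 over IGF1, ran from 6.50 over 7.27 to 9.72 in sham and from 6.32 over 6.78 to 11.70 in irradiated wild-type hosts. In heterozygote hosts Igfbp6 ran from 6.02 over 6.66 to 7.96 and from 5.75 over 6.94 to 7.91. The log2 fold changes were -0.19 (SE 0.39, limma adjusted p = 0.96) and -0.05 (SE 0.47, limma adjusted p = 0.994). Tumor 59, the second highest in Igf2, had the highest Igfbp6.

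Igfbp7 (chr5:77349240-77408045), a low-affinity IGF binder of blood vessel walls, varied least among the binding proteins in both genotypes, with within-group SDs of 0.53 and 0.61. It ran from 11.85 over 12.53 to 13.67 and from 11.58 over 12.79 to 13.47 in sham and irradiated wild-type hosts. In heterozygote hosts Igfbp7 ran from 11.30 over 12.70 to 13.59 and from 11.96 over 12.82 to 13.79. The log2 fold changes were 0.13 (SE 0.22, limma adjusted p = 0.948) and 0.16 (SE 0.26, limma adjusted p = 0.972). Of its other probe sets, the one lowest in mean level followed the one used (r = 0.93 and 0.95 in wild-type and heterozygote hosts), while the other did not (r = 0.02 and -0.39).

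**Figure D3:**
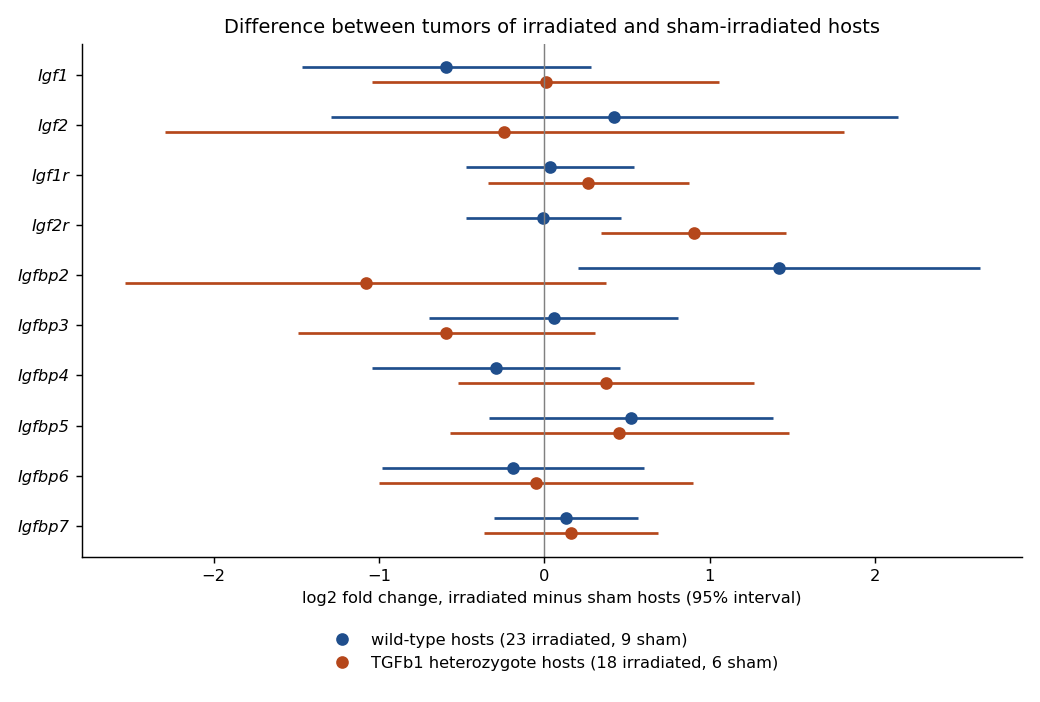
Log2 fold change of each gene, irradiated minus sham hosts, with 95% intervals from limma, in wild-type (blue) and TGFb1 heterozygote hosts (orange). The interval leaves out 0 for Igf2r in heterozygote hosts (0.34 to 1.46) and Igfbp2 in wild-type hosts (0.20 to 2.63) and includes it for the other 18 values; none passed after adjustment over 12508 genes.

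Other genes of the pathway were taken from 7 lists with 56 genes tested: receptor substrates, the PI3K to mTOR and FoxO relay, proteases and stanniocalcins that act on binding proteins, IGF2 mRNA-binding proteins, growth hormone genes, imprinted growth genes and IGFBP-related matricellular genes. None of the 56 was called for irradiation in either genotype or for the difference; 3, 1 and 1 had an unadjusted limma p under 0.05. In the relay, Foxo1, a transcription factor that AKT keeps out of the nucleus, had a log2 fold change of -0.39 (SE 0.15, limma adjusted p = 0.565) in wild-type hosts, where 8 of 17 genes were positive. Stat5a, which relays growth hormone and prolactin signals, had 0.81 (SE 0.34, limma adjusted p = 0.786) in heterozygote hosts. The growth hormone gene Gh itself had 0.30 (SE 0.09, limma adjusted p = 0.317) in wild-type hosts, at group means of 5.41 and 5.72, both under the median of all values (5.83).

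Imprinted growth genes shared a sign in heterozygote but not in wild-type hosts. In heterozygote hosts values were negative for all 7 tested, with a median of -0.54 against 0.009 over all genes, and none passed. Over all genes 51.8% were positive there. The list left out the members, such as Igf2 (-0.24) and Igf2r (0.90) in these hosts. In wild-type hosts 4 of the 7 were positive, beside 49.3% of all genes, and the median was 0. The non-coding Rian had -0.58 (SE 0.35, limma adjusted p = 0.9) in heterozygote and -0.64 (SE 0.29, limma adjusted p = 0.666) in wild-type hosts. Among 7 genes acting on binding proteins, the protease Adamts1 had the lowest p in both genotypes, with 0.46 (SE 0.43, limma adjusted p = 0.892) in wild-type and -0.71 (SE 0.51, limma adjusted p = 0.922) in heterozygote hosts. For receptor substrates and adaptors, Irs2 had -0.45 (SE 0.49, limma adjusted p = 0.909) in wild-type hosts and Grb2 0.17 (SE 0.13, limma adjusted p = 0.924) in heterozygote hosts. The matricellular genes Kazald1 and Esm1 had 0.49 (SE 0.37, limma adjusted p = 0.85) in wild-type and -0.73 (SE 0.51, limma adjusted p = 0.922) in heterozygote hosts. The IGF2 mRNA-binding protein Igf2bp3 had 0.11 (SE 0.15, limma adjusted p = 0.93) and -0.10 (SE 0.18, limma adjusted p = 0.974).

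While irradiation moved no member past the threshold, several members differed between tumors of the same group together with stromal and vascular genes. Each member was entered in turn as a covariate in limma, with the group means, over the 12507 other genes of each genotype. Igf1 was followed by 22.3% of genes in wild-type and 17.8% in heterozygote hosts, Igfbp6 by 22.3% and 6.7%, and Igfbp3 by 18.5% and 0.288%. Igfbp5 was followed by 11.8% and 10.5%, Igfbp4 by 7.86% and 9.91%, Igfbp7 by 4.16% and 5.24%, and Igf2r by 7.8% and 0%. Few or no genes followed Igfbp2 (0.728% and 0%), Igf1r (0.464% and 0.296%) and Igf2 (0% and 0.016%). Whether the shares differ between genotypes was not tested, and the genotypes differ in tumor number. Without the tumors of epithelial score below 11, the shares were 6.24% and 0.08% for Igf1, 0.136% and 0.895% for Igfbp6, 0.296% and 0.056% for Igfbp3, 2.86% and 0.048% for Igfbp5, 2.11% and 0.008% for Igfbp4, and 4.82% and 0.128% for Igfbp7. For Igf2r they were 1.92% and 0%.

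For pairs of members, 15 of 180 ordered relations passed at an adjusted p under 0.05 over all genes, 12 of 90 in wild-type and 3 of 90 in heterozygote hosts. These shares of 13.3% and 3.33% stand beside 9.59% and 5.07% of all gene relations with the 10 members, so the count as such does not set the members apart. With permutation p-values adjusted over the 45 pairs of a genotype, 6 pairs passed by Pearson's r in wild-type and 0 in heterozygote hosts, and 4 and 1 by Spearman's rho. By rho, Igf1 with Igfbp6 passed in both genotypes. The others by rho, all in wild-type hosts, were Igf1r with Igf2r, Igfbp3 with Igfbp4 and Igfbp4 with Igfbp7. Correlations below are of values with the group means taken off, with 32 wild-type and 24 heterozygote tumors, and p-values are from 100000 permutations within groups. Igfbp6 followed Igf1 in both genotypes by limma. In wild-type hosts Pearson's r was 0.55 (permutation p = 0.00452), Spearman's rho was 0.66 (permutation p = 0.0001), and in heterozygote hosts r was 0.64 (permutation p = 0.00148) and rho 0.66 (permutation p = 0.00075). The limma adjusted p for Igfbp6 on Igf1 was 0.00846 and 0.0094, and the permutation p for r adjusted over the 45 pairs was 0.0339 and 0.0666. Without the 2 tumors farthest from the median of Igf1, r was 0.62 and 0.50, and among tumors of epithelial score 11 or more it was 0.41 and 0.43.

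Igf1 and Igf2r ran against each other in wild-type hosts, with r of -0.60 (permutation p = 0.00066), rho of -0.48 (permutation p = 0.0075) and a limma adjusted p of 0.00411; r was -0.54 among tumors of epithelial score 11 or more. Igf2r rose with Igf1r (r = 0.51, permutation p = 0.00295; rho = 0.54, permutation p = 0.00194) and with Igfbp5 (r = 0.52, permutation p = 0.00228; rho = 0.43, permutation p = 0.0194). By r all 3 passed after adjustment over the pairs of the genotype. By rho only the relation with Igf1r did (permutation adjusted p = 0.0235). Those with Igf1 and Igfbp5 did not pass by rho (permutation adjusted p = 0.0675 and 0.124). Without the 2 tumors farthest from the median, r of Igf2r with Igf1, Igf1r and Igfbp5 was -0.55, 0.47 and 0.57. That with Igf1r did not pass there (permutation adjusted p = 0.0638). Among tumors of epithelial score 11 or more, r was 0.54 with Igf1r and 0.47 with Igfbp5. None of the 3 passed there (permutation adjusted p = 0.131 and 0.174, and 0.154 with Igf1). In heterozygote hosts none of these 3 Igf2r relations passed. In those hosts r was 0.08 with Igf1, 0.24 with Igf1r and 0.05 with Igfbp5, and rho was 0.21, 0.22 and -0.02. Whether the genotypes differ in these relations was not tested.

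Among the binding proteins of wild-type hosts, Igfbp3 rose with Igfbp4 (r = 0.63, permutation p = 0.00018; rho = 0.58, permutation p = 0.00084) and Igfbp4 with Igfbp7 (r = 0.53, permutation p = 0.00246; rho = 0.54, permutation p = 0.00209). Without the 2 tumors farthest from the median these were 0.53 and 0.48. The latter did not pass there (permutation adjusted p = 0.0633). Igfbp4 with Igfbp7 was the relation that passed by Pearson's r without the tumors of low epithelial score, with r of 0.69. Igfbp3 with Igfbp4 had 0.51 without them (permutation adjusted p = 0.145). In heterozygote hosts r was 0.28 for Igfbp3 with Igfbp4 and 0.48 for Igfbp4 with Igfbp7. Neither passed in those hosts (permutation adjusted p = 0.329 and 0.124). Igf2 with Igfbp6 rested on single tumors: r was 0.46 (permutation p = 0.0122), rho was 0.19 (permutation p = 0.276), and without the 2 tumors farthest from the median r was -0.04. In heterozygote hosts Igfbp5 on Igf1 had a limma adjusted p of 0.0495, but r of -0.51 (permutation p = 0.016, adjusted p = 0.108) and rho of -0.39 (permutation p = 0.0702, adjusted p = 0.211) did not pass over the 45 pairs. The r was 0.07 without the tumors of low epithelial score.

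Against marker scores of 10 cell types, 31 of 100 relations in wild-type and 22 of 100 in heterozygote hosts had a Pearson permutation p under 0.05 after Benjamini-Hochberg adjustment over the 100 of that genotype. By Spearman's rho 17 and 17 passed. Without the tumors of epithelial score below 11 the Pearson counts were 7 and 1. Relations with the epithelial score itself are not given as pooled values, since tumors fall on both sides of its gap.

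The closest relation of all was that of Igfbp6 with the fibroblast score (genes such as Col1a1 and Pdgfra). In heterozygote hosts r was 0.91 and rho 0.92 (both permutation p = 1e-05, the smallest 100000 permutations can give; adjusted p = 0.001 for r), and r was 0.88 without the 2 tumors farthest from the median and 0.89 among tumors of epithelial score 11 or more. In wild-type hosts r was 0.69 (permutation p = 4e-05, adjusted p = 0.000667) and rho 0.76 (permutation p = 2e-05), with 0.70 and 0.58 for the same subsets. Igf1 rose with the same score. Its r was 0.74 (permutation p = 1e-05, adjusted p = 0.0005) and its rho 0.77 (permutation p = 1e-05) in wild-type hosts. In heterozygote hosts r was 0.74 (permutation p = 0.00013, adjusted p = 0.00433) and rho 0.76 (permutation p = 7e-05). Without the 2 farthest tumors r was 0.80 and 0.61, and among tumors of epithelial score 11 or more 0.59 and 0.49. Igf1 rose about as closely with the endothelial score in heterozygote hosts (r = 0.76, permutation p = 5e-05, adjusted p = 0.0025; rho = 0.71, permutation p = 0.00044). In wild-type hosts that r was 0.54 (permutation p = 0.0018, adjusted p = 0.0138) and rho 0.52 (permutation p = 0.004). Without the 2 farthest tumors these were 0.63 in wild-type and 0.68 in heterozygote hosts, and among tumors of epithelial score 11 or more 0.10 and 0.60.

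Igfbp3 rose with the endothelial score (genes such as Pecam1 and Cdh5). In wild-type hosts r was 0.81 (permutation p = 1e-05, adjusted p = 0.0005) and rho 0.76 (permutation p = 1e-05); in heterozygote hosts r was 0.61 (permutation p = 0.00089, adjusted p = 0.00864) and rho 0.63 (permutation p = 0.00112). Without the 2 farthest tumors r was 0.73 and 0.69, and among tumors of epithelial score 11 or more 0.69 and 0.61. Igfbp3 also rose with the pericyte score. There r was 0.71 (permutation p = 4e-05, adjusted p = 0.000667) and rho 0.61 (permutation p = 0.0002) in wild-type hosts, and in heterozygote hosts r was 0.62 (permutation p = 0.00119, adjusted p = 0.00992) and rho 0.64 (permutation p = 0.00111). It was 0.59 and 0.68 without the 2 farthest tumors and 0.51 and 0.63 among tumors of epithelial score 11 or more. Sham wild-type tumor 46, the highest in Igfbp3, had an endothelial score of 11.48 against a group median of 7.29. The 3 genes most like Igfbp3 over the 32 wild-type tumors were Nid2 (r = 0.89), a basement membrane protein, Ctla2a (r = 0.88) and Gpihbp1 (r = 0.88), the lipoprotein lipase carrier of capillaries. In the 24 heterozygote tumors r was 0.79, 0.82 and 0.72, and Ctla2a ranked 1 of all genes there.

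Igfbp7 also rose with the endothelial score, with r of 0.57 (permutation p = 0.00077, adjusted p = 0.007) and rho of 0.53 (permutation p = 0.0024) in wild-type hosts. In heterozygote hosts r was 0.70 (permutation p = 0.00029, adjusted p = 0.0058) and rho 0.72 (permutation p = 0.00023). The r was 0.43 and 0.60 without the 2 farthest tumors and 0.63 and 0.61 among tumors of epithelial score 11 or more. Igfbp4 rose with it too, with r of 0.56 (permutation p = 0.00028, adjusted p = 0.00311) and rho of 0.54 (permutation p = 0.00165) in wild-type hosts. In heterozygote hosts r was 0.61 (permutation p = 0.00315, adjusted p = 0.0197) and rho 0.64 (permutation p = 0.00193). For Igfbp4, r was 0.49 and 0.54 without the 2 farthest tumors and 0.59 and 0.46 among tumors of epithelial score 11 or more. In heterozygote hosts Igfbp4 rose with the macrophage score as well (r = 0.74, permutation p = 0.00018, adjusted p = 0.0045; rho = 0.72, permutation p = 0.0002), at 0.71 without the 2 farthest tumors and 0.62 among tumors of epithelial score 11 or more. In wild-type hosts that r was 0.40 (permutation p = 0.0257, adjusted p = 0.0737) and rho 0.28 (permutation p = 0.128). Also past the threshold by r in both genotypes were Igf1 with the macrophage score (0.60 and 0.64) and Igfbp4 with the fibroblast score (0.47 and 0.62). So were Igfbp6 with the endothelial (0.60 and 0.68) and pericyte scores (0.50 and 0.55). None of these passed among tumors of epithelial score 11 or more. In that order r there was 0.45, 0.21, 0.09 and -0.15 in wild-type and 0.29, 0.50, 0.57 and 0.53 in heterozygote hosts. Members thus followed several stromal scores, and which of these a member follows most closely was not tested.

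Igfbp5 took the other side. In wild-type hosts it rose with the score of milk protein genes (Csn2, Csn3, Csn1s1, Wap and Lalba), with r of 0.72 (permutation p = 3e-05, adjusted p = 0.000667) and rho of 0.66 (permutation p = 8e-05). It was 0.58 without the 2 farthest tumors and 0.70 among tumors of epithelial score 11 or more. In heterozygote hosts r was 0.08 (permutation p = 0.717, adjusted p = 0.848) and rho 0.19 (permutation p = 0.401); the difference between the genotypes was not tested. Igfbp5 fell with the macrophage score in wild-type hosts (r = -0.67, permutation p = 0.00028, adjusted p = 0.00311; rho = -0.48, permutation p = 0.00847). That relation was -0.32 without the 2 farthest tumors, so it rests on them. Among tumors of epithelial score 11 or more it was -0.38 and did not pass (permutation adjusted p = 0.263).

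Igf1 rose with the T cell score in wild-type hosts (r = 0.74, permutation p = 2e-05, adjusted p = 0.000667; rho = 0.61, permutation p = 0.00022), at 0.54 without the 2 farthest tumors and 0.72 among tumors of epithelial score 11 or more. In heterozygote hosts r was 0.47 (permutation p = 0.0254, adjusted p = 0.0877) and rho 0.37 (permutation p = 0.0831). The T cell score was low, with group medians of 5.76 and 5.78 in sham and irradiated wild-type hosts. Its medians were 5.61 and 5.75 in sham and irradiated heterozygote hosts. All lay under the median of all values (5.83). For Igf1r, no marker score relation passed in either genotype. Igfbp2 rose with the pericyte score in wild-type hosts (r = 0.42, permutation p = 0.00818, adjusted p = 0.0341; rho = 0.46, permutation p = 0.00769; 0.36 without the 2 farthest tumors). In heterozygote hosts it fell with the T cell score (r = -0.55, permutation p = 0.00604, adjusted p = 0.0302). That rho was -0.58 (permutation p = 0.00464), and r was -0.55 without the 2 farthest tumors. Among tumors of epithelial score 11 or more the pericyte r was 0.42 and the T cell r was -0.58. Neither Igfbp2 relation passed there (permutation adjusted p = 0.231 and 0.1) or without the 2 farthest tumors (permutation adjusted p = 0.161 and 0.0671).

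**Figure D4:**
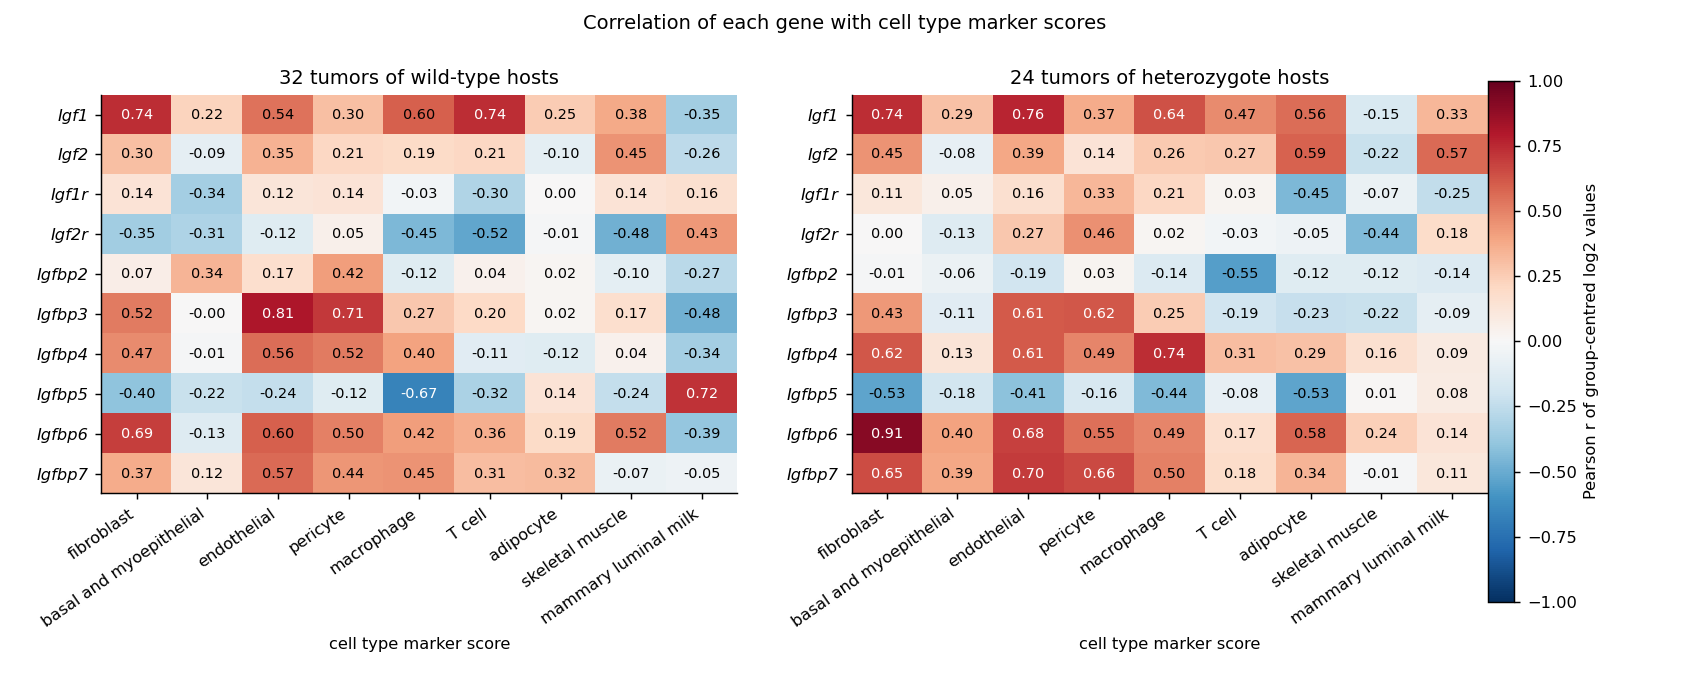
Pearson r of each gene with 9 cell type marker scores, group means taken off, over 32 tumors of wild-type (left) and 24 of heterozygote hosts (right); red is positive and blue negative. The highest values are Igfbp6 with fibroblast (0.91, heterozygote) and Igfbp3 with endothelial genes (0.81, wild-type), and Igfbp5 is 0.72 with milk genes in wild-type hosts and 0.08 in heterozygote hosts.

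**Figure D5:**
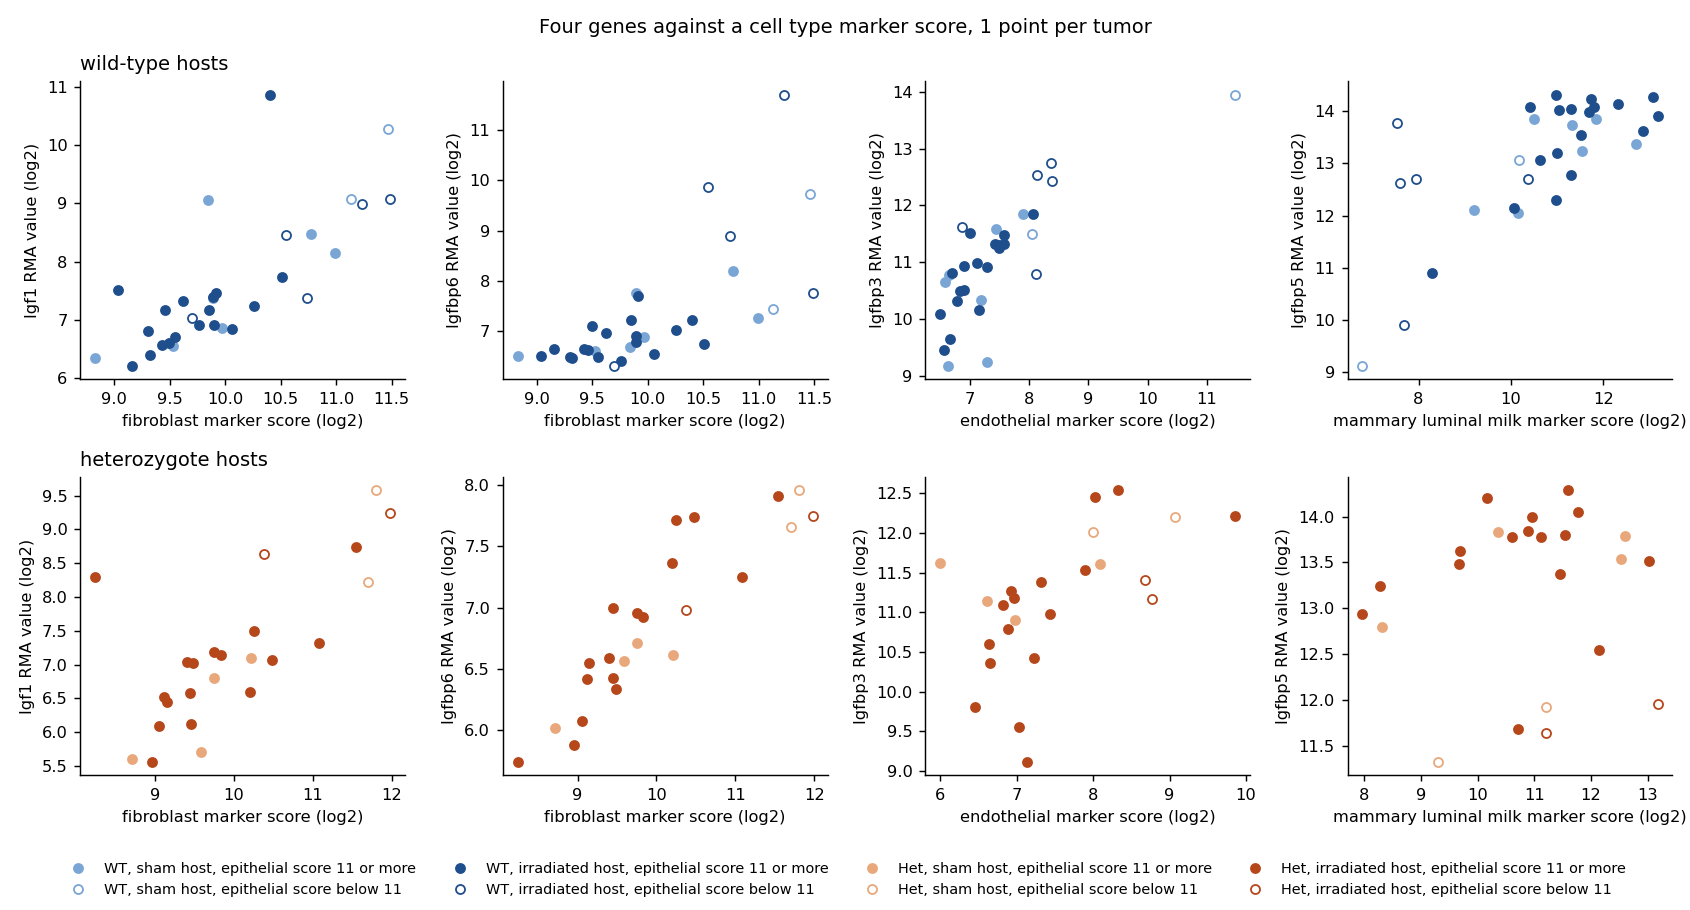
RMA log2 values of Igf1, Igfbp6, Igfbp3 and Igfbp5 against a marker score, 1 point per tumor, in wild-type (top) and heterozygote hosts (bottom); open circles are tumors of epithelial score below 11. Open circles hold most of the high Igfbp6 values in wild-type hosts, where r was 0.69 with and 0.58 without them, and sham wild-type tumor 46 is the point at an endothelial score of 11.48.

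The genes most like the other members, over the 32 wild-type tumors, were as follows. Those for Igf1 were Papss2 (r = 0.87), Cd37 (r = 0.84), a leukocyte surface protein, and Serpinb1a (r = 0.83), with 0.67, 0.81 and 0.70 in the 24 heterozygote tumors. Igf1r was most like Lrig1 (r = 0.76 and 0.70), a negative regulator of receptor tyrosine kinases, Rtel1 (0.76 and 0.44) and Cttn (0.74 and 0.57). For Igfbp6 they were Ptgis (r = 0.92 and 0.39), Bmper (0.90 and 0.82) and 6430548M08Rik (0.89 and 0.36). Igfbp7 had Fosl2 (r = 0.82 and 0.64), Filip1l (0.79 and 0.69) and Ptbp3 (0.78 and 0.20), and Igfbp4 had Sh2d5 (0.81 and 0.36), Dcbld2 (0.79 and 0.66) and Klf10 (0.77 and 0.55).

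Igf2r was most like Cd59a (r = 0.80), Cebpb (0.79) and Trib3 (0.77) in wild-type hosts, with 0.12, 0.10 and 0.16 in heterozygote hosts. For Igf2, Bves (0.68), Ice1 (0.66) and Fhl1 (0.66) had -0.19, -0.46 and 0.30 there, and for Igfbp2, Msi1 (0.76), Ror2 (0.74) and Insig1 (0.72) had 0.20, -0.05 and 0.38. Igfbp5 was most like Sorbs2 (0.78 and 0.56), Thrsp (0.78 and 0.34), a gene of fat synthesis, and Nr2f6 (0.75 and 0.36). These genes were picked as the highest of 12507 in wild-type hosts, so their values there are high by choice and only the heterozygote values are independent of it.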

How the data were processed

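RNA of 56 tumors was labelled (100 ng per array) for Affymetrix 3' arrays, per the labels' protocols. The authors' values, 1 log2 number for each probe set, came from RMA, per the submitters' processing notes, which name no version.

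Of 45101 probe sets, 34958 had 1 symbol in the platform annotation of GEO, 932 several and 9211 none listed; the first kind was used. Kept probe sets exceeded 5.83, the median over all values, on 6 or more arrays. Each gene was read from its brightest kept probe set by mean. RefSeq GRCm38.p6 matched 12467 of 12508 genes and gave coordinates and promoters; all 10 members matched. No columns were identical (highest correlation of 2 arrays 0.99).

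Fits used limma 3.58.1 (R 4.3.3) with 4 group means over all arrays, with contrasts of irradiation in each host genotype and of their difference, and with each member as a covariate within a genotype, each with Benjamini-Hochberg adjustment over all genes. Correlations used 100000 permutations within groups (scipy 1.17.1, Python 3.11.15). The code was tested on simulated data.

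Named genes were the 10 members, the gene of lowest p in each pathway list and contrast of irradiation, the 3 genes most correlated with a member over wild-type tumors, and markers of lists that results turn on. Igf1r tumor 53 and the Igf2 limit of 9 were chosen after the values were seen. Members and lists were chosen with earlier results of these data known. Imprinted genes listed under 2 names were counted once. Alternatives were other filters, probe sets and normalizations, a trended and robust or weighted fit, covariates (18S, the 3' minus 5' control difference, fibroblast or epithelial score), only the 2 groups compared, each array left out and, added after seeing the data, leaving out tumors of epithelial score below 11 or arrays of 18S below 11.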

Additional observations from a re-analysis of the deposited data

Results flagged for a closer look

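In 2 groups of 4 to 10 tumors (9 sham wild-type, 6 sham heterozygote), the members and marker scores were checked for a tumor far from the rest; chance marks about 1 in 20 such groups, and 4 of 40 were marked. Sham wild-type tumor 31 had Igf2 at 11.44, with the next highest at 8.41. Sham wild-type tumor 60 had Igfbp5 at 9.11, with the next lowest at 12.06. Sham wild-type tumor 46 had an endothelial marker score of 11.48, with the next at 8.05, and a pericyte marker score of 11.41, with the next at 9.58. Tumor 46 was also the highest of its group in Igf1 (10.28), Igfbp3 (13.95), Igfbp4 (13.75), Igfbp6 (9.72) and Igfbp7 (13.67). Tumors 46 and 60 are the 2 sham wild-type tumors of epithelial score below 11; the part of that in these values was not tested.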

How the results depend on the processing

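No alternative called a member for irradiation. Over 30 member results, 343 of 371 alternative values kept direction and side of the threshold and 28 reversed; leaving out each array in turn reversed 64 of 1680, and 14 results never reversed. Counts over all genes stayed at 0 by limma, apart from 1 in wild-type hosts with every probe set tested and 2 in heterozygote hosts without tumors of epithelial score below 11. Array number and within-group spread limit the precision, and the cause of the shifts below was not tested.

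In wild-type hosts the 18S covariate gave Igf1 0.024, Igfbp3 -0.10 and Igfbp6 0.52, and the fibroblast covariate gave Igfbp6 0.083. Without arrays of 18S below 11, Igf2 was -0.18, Igf1r -0.15 and Igfbp3 -0.76. Array weights gave Igf2r 0.15, and second probe sets gave Igf2r 0.0053 and Igfbp3 -0.022. In heterozygote hosts array weights gave Igf1 -0.18 and Igfbp7 -0.028, and the second probe set gave Igfbp7 -0.088. Igf2 there was 0.17 with the fibroblast and 0.053 with the epithelial covariate, and 0.11 without low 18S. Igfbp6 there was 0.10 with the 18S, 0.20 with the 3' minus 5', 0.29 with the fibroblast and 0.19 with the epithelial covariate, 0.33 without low epithelial score and 0.12 without low 18S. For the difference, leaving out low 18S gave Igf2 0.28 and Igfbp3 0.17, the 18S covariate gave Igfbp5 0.14 and Igfbp6 -0.42, array weights gave Igfbp7 -0.27 and its second probe set -0.12.

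With each array left out, wild-type values ran from -0.11 to 0.11 for Igf1r, -0.12 to 0.11 for Igf2r, -0.17 to 0.42 for Igfbp3, -0.80 to -0.31 for Igf1, 0.19 to 0.92 for Igf2, 0.07 to 0.68 for Igfbp5, -0.48 to -0.10 for Igfbp4 and -0.39 to 0.092 for Igfbp6. Heterozygote values ran from -0.31 to 0.49 for Igf1, -0.75 to 0.63 for Igf2, -0.023 to 0.64 for Igfbp4, -0.23 to 0.15 for Igfbp6, 0.12 to 0.37 for Igf1r, 0.14 to 0.65 for Igfbp5 and -0.10 to 0.36 for Igfbp7. Differences ran from -1.18 to 0.21 for Igf2, -0.38 to 0.38 for Igfbp5, -0.14 to 0.35 for Igfbp6 and -0.23 to 0.23 for Igfbp7.

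Pairs of members past the threshold by Pearson numbered 6, and 1 without low epithelial score. Marker score relations numbered 53, then 27 without the 2 farthest tumors and 8 without low epithelial score. Ordered member calls by limma numbered 15, then 6 with the epithelial covariate, 3 with the fibroblast covariate and 2 without low epithelial score. In tumors of epithelial score 11 or more, r with the epithelial score was 0.14 for Igf1, 0.18 for Igfbp3 and 0.31 for Igfbp6 in wild-type and -0.20 for Igfbp5 in heterozygote hosts, and r of Igfbp6 with the pericyte score was -0.15 in wild-type hosts; these 5 had the opposite sign over all tumors. No paired analysis was possible because the groups share no replicate numbers.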
